A study of Mus musculus with 64 samples.

Results

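The guanylate-binding proteins (GBPs) are a family of large GTPases, and their genes were followed here in microglia of the mouse retina. The members were the 8 rows *Gbp2*, *Gbp3*, *Gbp4*, *Gbp5*, *Gbp6*, *Gbp7*, *Gbp8* and *Gbp9* of a table of 25239 genes, taken by symbol, and all 8 were found. Every retina came from a *Cx3cr1CreER:R26-tdTomato* mouse on the C57BL/6J background, heterozygous by the study's methods. In these mice, Cre expressed from the *Cx3cr1* locus and induced with tamoxifen eye drops labels microglia with the red fluorescent protein tdTomato. The cells therefore also include any other *Cx3cr1*-expressing cell that kept the label. The study left a washout of some weeks after the drops, which it gives as a means to label microglia more specifically. Groups were naive eyes, which had no injection, and eyes collected 12 (D12) or 28 days (D28) after an intravitreal (IVT) injection of an AAV2 without a transgene at 1e10 genome copies per eye. By the study's methods this vector (io2) also carries an oligonucleotide sequence that inhibits TLR9, a sensor of viral DNA. Females and males of 3, 9 and 18 months gave 18 groups of age, sex and day. No library came from an eye injected with vehicle, so injection and vector cannot be told apart in these RNA data. The study did have PBS-injected eyes, and by flow cytometry it reports no change of its microglial markers in them. A library was made from 600 live, strongly tdTomato-positive cells sorted from 1 retina.

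GBPs are induced by interferon. Interferon gamma and type I interferon signal through JAK kinases to transcription factors that recognize short DNA motifs upstream of their target genes. GBPs bind and hydrolyze GTP, assemble on the membranes of vacuoles that hold bacteria or parasites and on bacterial surfaces, and help to open those compartments. They work beside the immunity-related GTPases, a related family of interferon-induced proteins, and they promote inflammasome activation by bacterial lipopolysaccharide and DNA. GBP2 and GBP5 carry a lipid anchor at the C terminus.

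The 62 libraries used were 19 naive, 22 D12 and 21 D28, with 2 to 4 in each group of age, sex and day. Total counts per library were 1468478 to 9836173 (median 4188992), so that a floor of 3 counts stood for 0.305 to 2.04 CPM. Levels below are in CPM with library sizes scaled by edgeR's TMM. This floor covers counting error only, since amplified reads are not independent molecules. Checked by *Xist* and Y-linked genes, 2 of the 64 deposited libraries went against their labelled sex and 0 of the 62 used. They were the libraries labelled 18-month-old female D28 replicate 1, left out by rule, and 9-month-old male D28 replicate 1, which is in the uncorrected table only. All 7 microglia markers (*P2ry12*, *Tmem119*, *Sall1*, *Cx3cr1*, *Siglech*, *Fcrls* and *Csf1r*) were detected in all 62 libraries. In 1 library, replicate 4 of the D28 18-month-old males, the title gives day 28 and the time-point label gives day 12, and it was kept at D28. At D12, 3 libraries stood apart by low GBP levels, namely replicate 2 of the 9-month-old males and replicates 1 and 2 of the 18-month-old females. Each retina is a separate sample, and since the study's methods send the fellow eyes to flow cytometry or staining, p-values measure the spread between mice.

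The members lie in 2 clusters of the genome. In GRCm38, *Gbp5* (chr3:142496934-142522344), *Gbp7* (chr3:142530336-142550151), *Gbp3* (chr3:142560016-142573213) and *Gbp2* (chr3:142620663-142638008) follow each other on chromosome 3. *Gbp8* (chr5:105012513-105053609), *Gbp9* (chr5:105076464-105110357), *Gbp4* (chr5:105115767-105139586) and *Gbp6* (chr5:105270702-105295871) lie together on chromosome 5. All 8 are annotated as protein-coding. Promoter sequences of the 4 chromosome 3 members were at hand from RefSeq, with 2 starts for *Gbp3*. *Gbp4*, *Gbp6*, *Gbp8* and *Gbp9* are named only. The 170 bases before each start are shown because the 4 genes differed in the interferon motifs these bases hold, and 1 of the *Gbp3* starts, the upstream one, is shown. They are chr3:142496764-142496933 for *Gbp5*, chr3:142530166-142530335 for *Gbp7*, chr3:142559874-142560043 for *Gbp3* and chr3:142620493-142620662 for *Gbp2*. For *Gbp3* the stretch ends inside the gene position above, which begins at chr3:142560016, so its distances count from a start inside the gene. Capitals mark matches on either strand to the core of the interferon-stimulated response element (ISRE), searched as GAAA, any 2 bases and GAAA, and to the gamma-activated site (GAS), searched as TTCNNNGAA. Each runs 5′ to 3′ on the plus strand of GRCm38.p6, which is also the coding strand.
Gbp5: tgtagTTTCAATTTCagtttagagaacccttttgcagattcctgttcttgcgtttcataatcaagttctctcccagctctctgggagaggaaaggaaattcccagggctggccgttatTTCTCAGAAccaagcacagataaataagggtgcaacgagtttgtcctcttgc
Gbp7: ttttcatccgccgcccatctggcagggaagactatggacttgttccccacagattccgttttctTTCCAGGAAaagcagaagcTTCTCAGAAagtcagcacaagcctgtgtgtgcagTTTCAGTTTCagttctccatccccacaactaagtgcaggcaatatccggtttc
Gbp3: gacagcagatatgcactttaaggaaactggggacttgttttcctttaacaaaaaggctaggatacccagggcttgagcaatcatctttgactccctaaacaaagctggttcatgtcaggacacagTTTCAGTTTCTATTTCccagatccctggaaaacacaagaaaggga
Gbp2: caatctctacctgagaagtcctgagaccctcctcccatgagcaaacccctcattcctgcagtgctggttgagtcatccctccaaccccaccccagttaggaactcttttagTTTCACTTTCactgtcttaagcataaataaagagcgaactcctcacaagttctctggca

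In the 250 bases before the start, the ISRE core was matched 59 to 50 bases upstream in *Gbp2*, 53 to 44 bases upstream in *Gbp7* and 165 to 156 bases upstream in *Gbp5*. The upstream start of *Gbp3* had 2 overlapping matches, at 45 to 36 and 39 to 30 bases, and its downstream start had 0. GAS matches stood 106 to 98 and 87 to 79 bases upstream in *Gbp7*, and 245 to 237 and 52 to 44 bases upstream in *Gbp5*. *Gbp2* and *Gbp3* had 0 GAS matches. The *Gbp5* match at 52 to 44 and the *Gbp7* match at 87 to 79 hold the same 9 bases, TTCTCAGAA. Over 32841 promoter windows of the same length, 978 (2.98%) held the ISRE core, 2306 (7.02%) held the GAS and 109 (0.332%) held both, as those of *Gbp5* and *Gbp7* do. These matches describe the letters and do not show binding.

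**Figure D1:**
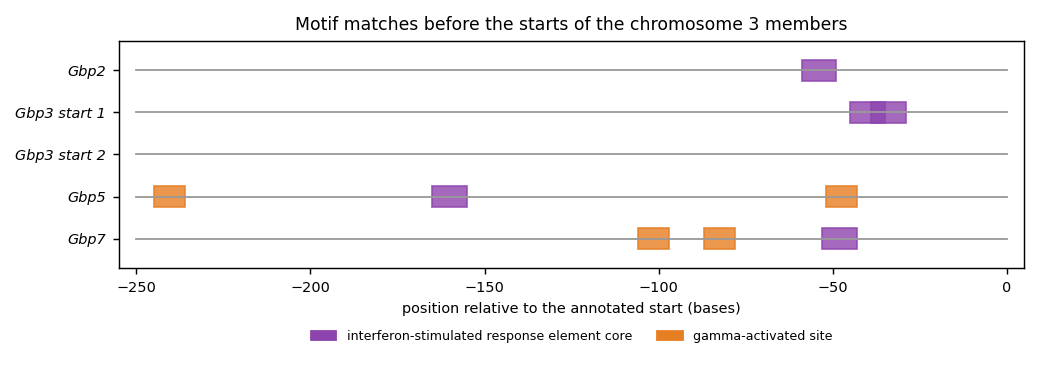
Positions of the ISRE core and GAS matches upstream of the RefSeq starts of the 4 members with promoter sequence, in bases before the start. The match nearest the start lies within 59 bases of it in all 4 genes, taking the upstream start of *Gbp3*. The downstream start of *Gbp3* has no match, and *Gbp5* and *Gbp7* hold both motifs. Both *Gbp3* starts lie inside the gene position given in the text.

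Related genes can share reads. Of all 75-base windows of the exons (75 bases is the read length), 0.578% in *Gbp5*, 0.955% in *Gbp2*, 1.25% in *Gbp7*, 2.06% in *Gbp3*, 3.08% in *Gbp4*, 3.61% in *Gbp9* and 8.04% in *Gbp8* also occurred in another gene of the table. In *Gbp6* the share was 42.7%, with *Gbp10*, *Gbp11* and the other chromosome 5 genes of the family, so its counts are uncertain. Exons of *Gbp4*, *Gbp8* and *Gbp9* overlap each other in GENCODE M21, where reads cannot be assigned to 1 gene. The authors counted on the refGene annotation, and the overlap in it was not checked. In the RefSeq positions given above, *Gbp4*, *Gbp8* and *Gbp9* do not overlap. CPM is compared between genes only per kb of exon, with exon lengths from GENCODE M21 and not from the annotation used for counting.

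In naive microglia the GBPs were low, and on the scale of CPM per kb of exon *Gbp2* had the highest median, 5.43 over 19 libraries. *Gbp7* (4.94), *Gbp9* (3.71) and *Gbp3* (3.02) followed. *Gbp5* (0.593), *Gbp8* (0.362), *Gbp6* (0.283) and *Gbp4* (0.259) were below 1 CPM per kb. At D12 *Gbp2* stood at 285 CPM per kb, above *Gbp3* (52.7), *Gbp8* (36.3), *Gbp7* (35.9), *Gbp9* (18.6), *Gbp4* (16.996), *Gbp6* (10.8) and *Gbp5* (7.84). *Gbp8* moved from the sixth to the third place in the order. At D28 the first 5 places were the same as at D12, from *Gbp2* at 28.8 to *Gbp9* at 5.77 CPM per kb, and *Gbp4* was last at 1.36. On every day the ranges of each pair of neighbors in the order overlapped over all libraries of that day. Within single libraries, *Gbp2* was above *Gbp3* per kb in 22 of 22 at D12 and 21 of 21 at D28, and at D12 *Gbp3* was above *Gbp8* in 20 of 22 and *Gbp7* above *Gbp9* in 20 of 22. At D28 *Gbp9* was above *Gbp6* in 21 of 21 libraries. The order of some other neighbors varied between libraries. *Gbp8* was above *Gbp7* in 6 of 22 D12 and 9 of 21 D28 libraries despite its higher median, and *Gbp2* was above *Gbp7* in 10 of 19 naive ones.

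**Figure D2:**
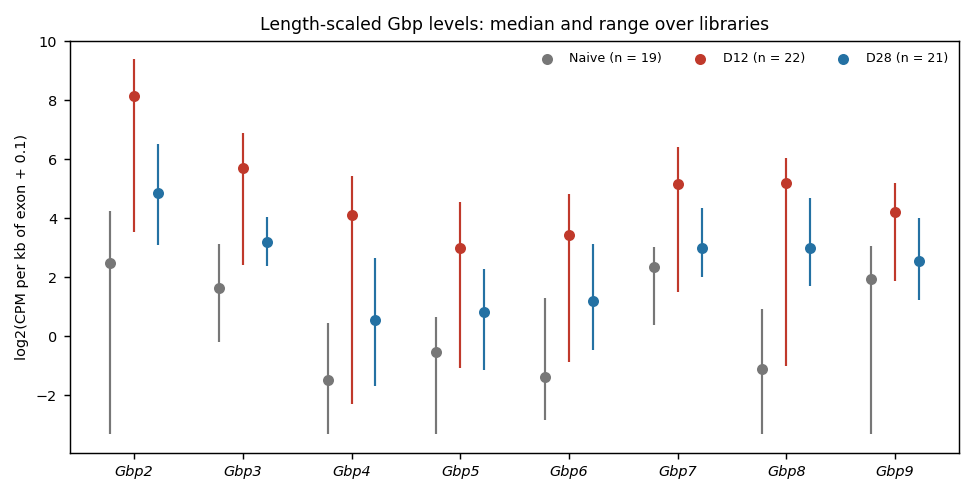
Median (point) and range (line) of CPM per kb of exon for each member in 19 naive, 22 D12 and 21 D28 libraries, on a log2 scale after adding 0.1. *Gbp2* has the highest median on every day, and every member's median is highest at D12.

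The comparison of D12 with naive microglia asks which GBPs responded to the injection. At D12, 36 of 48 tests of a member within an age and sex gave a rise, every one of the 48 log2 fold changes was above 0, and 0 members fell. A rise was called where glmTreat in edgeR, testing for a log2 fold change beyond 1, gave a p under 0.05 after Benjamini-Hochberg adjustment over all genes tested. Each member passed the filter on low counts in all 6 fits. In 3-month-old females 6 of 8 members rose, beside 1.67% of all genes tested. In 3-month-old males 8 of 8 rose (all genes 2.77%), in 9-month-old females 8 of 8 (1.77%), in 9-month-old males 6 of 8 (0.774%) and in 18-month-old males 8 of 8 (2.86%). *Gbp7* and *Gbp9* were the members without a call in 3-month-old females and in 9-month-old males. In 18-month-old females 0 of 8 were called (all genes 0%). The median log2 fold change of the 8 members was 2.92 and 4.78 in 3-month-old females and males, 4.43 and 4.89 at 9 months, and 3.92 and 5.34 at 18 months, while the median over all genes tested lay between -0.01 and 0.11. Every D12 library was above every naive one for 7 of 8 members in 3-month-old females (all genes tested 9.3%), 8 in 3-month-old males (13.8%), 8 and 7 in 9-month-old females and males (15.4% and 10.3%), and 1 and 8 in 18-month-old ones (5.84% and 13.4%). In sorted bulk samples, a change in the share of cells that express a gene and a change in RNA per cell cannot be told apart.

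**Figure D3:**
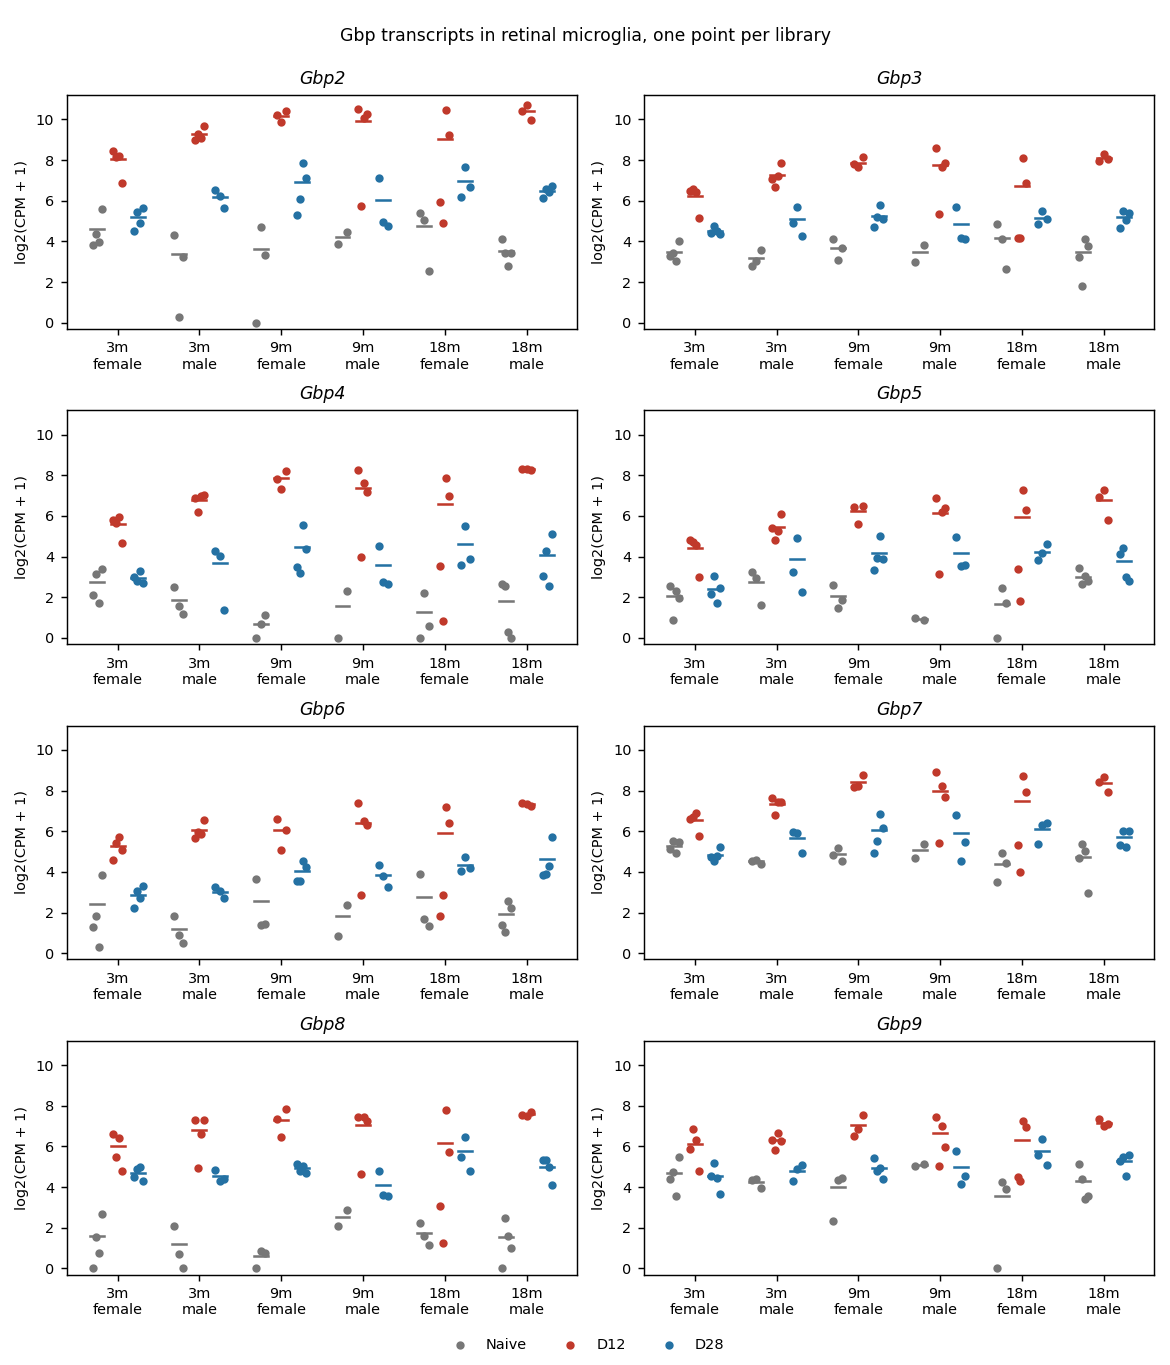
Levels of the 8 GBPs in each library, as log2(CPM + 1), by age, sex and day. Points are libraries and bars are the log2 of the group mean CPM plus 1. In all 48 combinations of member, age and sex the D12 mean is above the naive and D28 means, while D12 and naive libraries overlap for 7 of 8 members in 18-month-old females, 1 in 3-month-old females and 1 in 9-month-old males.

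*Gbp2*, an isoprenylated member that targets vacuoles, was the most abundant GBP. In 3-month-old females it stood at 13.01, 19.7, 14.6 and 47.5 CPM in the naive, 343, 287, 295 and 115 in the D12 and 21.5, 42.97, 28.6 and 48.7 in the D28 libraries. In 3-month-old males it stood at 19.1, 0.216 and 8.44 CPM in the naive, 507, 618, 537 and 816 in the D12 and 90.3, 75.3 and 49.3 in the D28 libraries. No D12 library of this age overlapped its naive group, and every male D12 value was above every female one. The values in 9-month-old females were 0, 25.02 and 9.14 CPM in the naive, 1185, 926 and 1371 in the D12 and 38.4, 67.8, 230.3 and 136 in the D28 libraries. The 9-month-old males gave 13.7 and 21.3 CPM in the naive, 1473, 52.1, 1065 and 1233 in the D12 and 139.6, 29.9 and 26.01 in the D28 libraries. Replicate 2 of the D12 males was far below the other 3 and still above both naive libraries. In 18-month-old females *Gbp2* measured 40.5, 31.9 and 4.74 CPM in the naive, 60.1, 28.6, 1400.2 and 593 in the D12 and 72.4, 202 and 102 in the D28 libraries. In 18-month-old males it measured 16.5, 9.83, 5.896 and 9.89 CPM in the naive, 1344, 1688 and 1017 in the D12 and 69.8, 96.03, 84.1 and 104 in the D28 libraries. Replicates 1 and 2 of the D12 females were near the naive level, replicate 3 lay within the range of the D12 males and replicate 4 below it. The D12 means were 260.1 ± 99.9 CPM (SD, n = 4) and 619 ± 139 CPM (SD, n = 4) in 3-month-old females and males, 1161 ± 223 CPM (SD, n = 3) and 956 ± 625 CPM (SD, n = 4) in 9-month-old ones, and 521 ± 641 CPM (SD, n = 4) and 1349.6 ± 336 CPM (SD, n = 3) in 18-month-old ones. The log2 fold change at D12 was 3.43 (SE 0.40, adjusted p = 6.2e-05) in 3-month-old females, 6.06 (SE 0.60, adjusted p = 5.2e-06) in 3-month-old males, 6.65 (SE 1.03, adjusted p = 0.0026) and 5.77 (SE 1.18, adjusted p = 0.033) in 9-month-old females and males, and 7.01 (SE 0.35, adjusted p = 1.2e-08) in 18-month-old males, by edgeR's glmTreat. In 18-month-old females it was 4.39 (SE 1.25, adjusted p = 0.69), which did not pass the test.

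*Gbp8* and *Gbp4*, both on chromosome 5, were near the floor in naive microglia and had the highest single log2 fold changes of the 8 members, in 9-month-old females. *Gbp8* in 3-month-old females stood at 0, 1.93, 0.695 and 5.35 CPM in the naive, 98.2, 43.02, 85.5 and 26.3 in the D12 and 21.7, 28.6, 30.9 and 18.5 in the D28 libraries. In 3-month-old males it was 3.27, 0.647 and 0 CPM in the naive, 159, 29.3, 96.9 and 158 in the D12 and 27.997, 19.02 and 20.1 in the D28 libraries. In both sexes every D12 and D28 library was above every naive one. The 9-month-old females gave 0, 0.801 and 0.721 CPM in the naive, 161, 88.8 and 226 in the D12 and 34.3, 26.998, 32.4 and 25.1 in the D28 libraries. The 9-month-old males gave 3.21 and 6.24 CPM in the naive, 172, 23.98, 176 and 152 in the D12 and 26.9, 11.3 and 10.97 in the D28 libraries. The naive 9-month-old females held at most 4 counts of *Gbp8*, so the fold against them rests on few counts. In 18-month-old females *Gbp8* was 3.69, 1.98 and 1.25 CPM in the naive, 7.31, 1.34, 223 and 52.4 in the D12 and 44.2, 88.7 and 27.2 in the D28 libraries. In 18-month-old males it was 0, 4.59, 2.04 and 0.989 CPM in the naive, 186, 181 and 209 in the D12 and 38.7, 38.7, 30.4 and 16.3 in the D28 libraries. Its log2 fold change at D12 was 4.85 (SE 0.60, adjusted p = 5.7e-05) and 6.19 (SE 0.67, adjusted p = 1.7e-05) in 3-month-old females and males, 8.22 (SE 0.61, adjusted p = 1.1e-05) and 4.77 (SE 0.79, adjusted p = 0.014) at 9 months, and 6.49 (SE 0.56, adjusted p = 3.4e-06) in 18-month-old males. That of 18-month-old females was 5.03 (SE 1.42, adjusted p = 0.69).

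*Gbp4* had a median of 1.94 CPM (range 0 to 9.55) over naive, 127 CPM (range 0.767 to 319.7) over D12 and 10.2 CPM (range 1.58 to 45.9) over D28 libraries. The D12 values in 9-month-old females were 226, 162 and 299 CPM, against 0, 0.6005 and 1.202 in the naive ones, which held at most 5 counts. These groups were far apart. The log2 fold change there, 8.55 (SE 0.84, adjusted p = 7.7e-05), was the largest of any member in any group. It was 2.99 (SE 0.41, adjusted p = 7.2e-04) and 5.295 (SE 0.60, adjusted p = 3.1e-05) in 3-month-old females and males, 6.28 (SE 1.27, adjusted p = 0.031) in 9-month-old males and 6.85 (SE 0.76, adjusted p = 3.2e-05) in 18-month-old males. In 18-month-old females the D12 libraries held 10.4, 0.767, 236 and 127 CPM and the naive ones 0, 3.71 and 0.499, and these overlapped. *Gbp4* there gave 5.96 (SE 1.65, adjusted p = 0.69).

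*Gbp3*, *Gbp5* and *Gbp6* rose in the same 5 of 6 fits as *Gbp2*, *Gbp4* and *Gbp8*. *Gbp3* went from a median of 9.85 CPM (range 2.49 to 28.3) in naive to 172 CPM (range 17.2 to 391) in D12 libraries, with log2 fold changes of 2.72 to 4.82 over the 6 fits. *Gbp5*, an isoprenylated member known for inflammasome activation, went from 3.94 CPM (range 0 to 9.68) to 52.04 CPM (range 2.49 to 156), with log2 fold changes of 2.71 to 6.19. *Gbp6*, whose counts are uncertain, went from 1.68 CPM (range 0.232 to 13.9) to 64.4 CPM (range 2.61 to 166), with 3.02 to 5.86. These 3 started low and their D12 medians were all above the highest naive library. *Gbp7* and *Gbp9* started higher and had smaller folds. *Gbp7* went from 27.7 CPM (range 6.68 to 44.7) to 201 CPM (range 15.2 to 478), with 1.28 to 3.67, and *Gbp9* from 19.2 CPM (range 0 to 42.97) to 96.2 CPM (range 18.6 to 187), with 1.46 to 3.15. In 3-month-old females *Gbp7* stood at 33.8, 44.7, 29.4 and 43.3 CPM in naive and 97.4, 103, 118 and 53.3 CPM in D12 libraries. Its log2 fold change of 1.28 (SE 0.26, adjusted p = 0.69) did not pass the test against a 2-fold change, and in 3-month-old males that of 2.87 (SE 0.28, adjusted p = 2.9e-05) did. The corresponding values of *Gbp9* were 1.46 (SE 0.41, adjusted p = 0.67) in females and 2.101 (SE 0.27, adjusted p = 0.0032) in males.

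At D12 *Gbp3* ranged over 35.04 to 93.2 CPM in 3-month-old females, 102 to 227 in 3-month-old males, 199 to 281 and 39.1 to 391 in 9-month-old females and males, and 17.2 to 270.5 and 247 to 311 in 18-month-old females and males. *Gbp5* ranged over 7.01 to 27.3 CPM in 3-month-old females, 27.1 to 66.98 in 3-month-old males, 48.4 to 89.9 and 7.82 to 115 in 9-month-old females and males, and 2.49 to 156 and 55.7 to 156 in 18-month-old females and males. *Gbp6* ranged over 23.2 to 51.8 CPM in 3-month-old females, 50.04 to 93.2 in 3-month-old males, 32.95 to 97.1 and 6.26 to 166 in 9-month-old females and males, and 2.61 to 145 and 149 to 164 in 18-month-old females and males. For each of the 3, D12 and naive libraries overlapped in 18-month-old females and in none of the other 5 groups. *Gbp7* ranged over 53.3 to 118 CPM in 3-month-old females, 109 to 198 in 3-month-old males, 287 to 441 and 41.2 to 478 in 9-month-old females and males, and 15.2 to 417 and 242 to 399.9 in 18-month-old females and males. *Gbp9* ranged over 26.6 to 115 CPM in 3-month-old females, 55.7 to 101 in 3-month-old males, 91.5 to 187 and 32.3 to 175 in 9-month-old females and males, and 18.6 to 152 and 129 to 160.4 in 18-month-old females and males. The lowest D12 library of a group was highest in 18-month-old males for *Gbp3*, *Gbp5*, *Gbp6* and *Gbp9*, and in 9-month-old females for *Gbp7*.

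**Figure D4:**
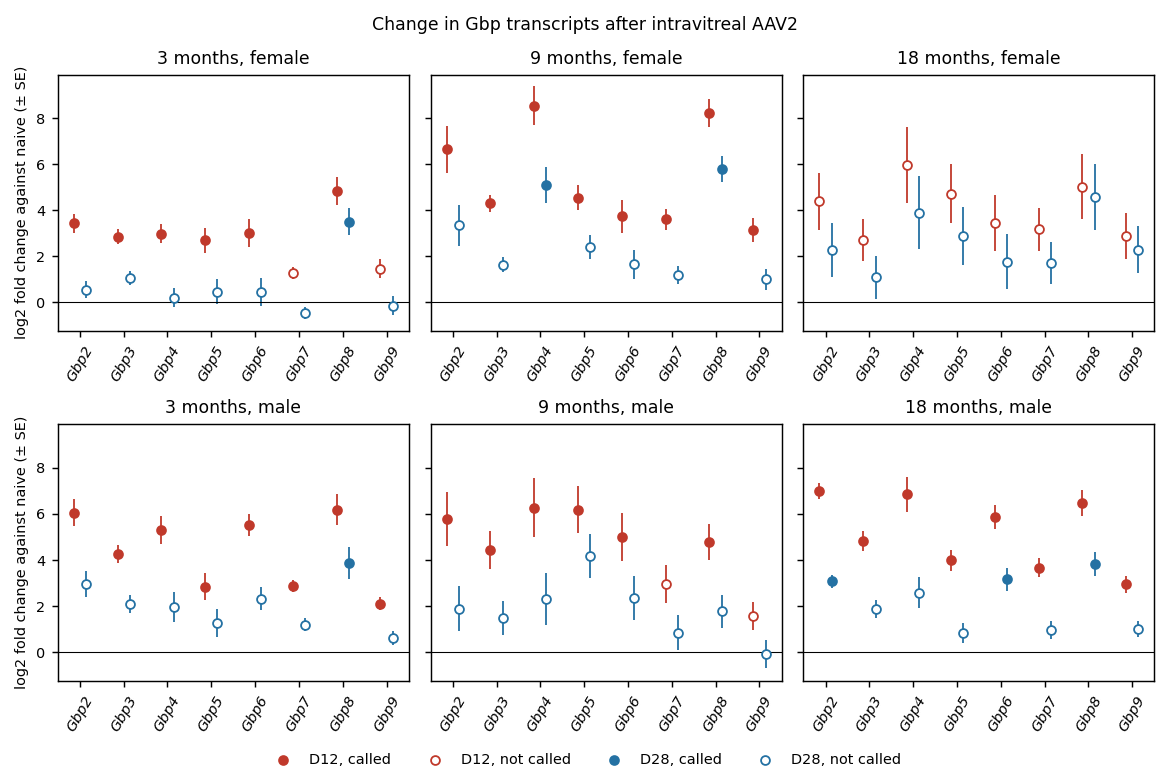
Log2 fold change against naive (point) and its SE (line) for each GBP at D12 and D28, by age and sex, from edgeR. Filled points passed glmTreat at an adjusted p under 0.05. All 48 D12 points lie above 0, and those of 18-month-old females are open, with the longest SE lines at D12.

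In 18-month-old females 0 members were called by glmTreat while 8 of 8 had an unadjusted p under 0.05, beside 485 of 11159 genes tested. DESeq2 called 0, and a single fit over all 18 groups, which shares 1 estimate of the spread, called 5 (*Gbp2*, *Gbp4*, *Gbp5*, *Gbp7* and *Gbp8*). The D12 females divided by collection day: replicates 1 and 2 were from day 1, and replicates 3 and 4 from day 2. Within day 1 the log2 difference of *Gbp2* between D12 and naive was 0.03, and within day 2 it was 6.14. In 9-month-old males, 6 members were called with all libraries and 7 without replicate 2 of D12, which added *Gbp7* (adjusted p = 0.021). Their count was 0 without either of the 2 naive libraries, and 3 without replicate 4 of D12. With either naive library left out, that arm is a single library, which is assumed to vary like the D12 and D28 groups of the same fit. In the other 4 groups the number of calls moved by at most 1.5 times as each library was left out. Within collection days, over 8 members and 12 combinations of age, sex and collection day, the D12 mean was above the naive mean in 93 of 96 cases. The 3 exceptions were *Gbp3*, *Gbp6* and *Gbp8* in 18-month-old females of day 1, at -0.70, -1.65 and -0.15 on the log2 scale. The 8 members of a combination come from the same libraries, and some groups there held 1 library. Such counts of cases within collection days, here and below, are therefore not independent cases.

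Other genes moved with the GBPs at D12. In the 3 low D12 libraries *P2ry12*, a marker of homeostatic microglia, was at 4550.0, 4552 and 3293 CPM, above the 503 to 2044 CPM of the others. Their T cell marker sums were 102, 1.57 and 13.2 CPM in the same order, and their microglia marker sums 9834, 11072 and 8518 CPM. The sum of the 7 microglia markers had a median of 14597 CPM (12293 to 18617) in naive, 4659 (2907 to 11072) in D12 and 8020 (5247 to 12495) in D28 libraries. At D12, 15 of 42 tests of these markers gave a fall. The sum of 7 T cell markers had a median of 1.27 CPM (0 to 156) in naive, 126 (1.57 to 380) in D12 and 71.4 (19.1 to 185) in D28 libraries, with 17 of 38 tests higher at D12. *Cd3e* was at 0 in 16 of the 62 libraries. For 6 markers of NK cells the medians were 1.56 (0 to 209), 127 (3.13 to 628) and 61.5 CPM (1.13 to 278), with 2 of 24 tests higher at D12. For 6 markers of monocyte-derived cells they were 37.2 (20.4 to 181), 313 (42.8 to 1639) and 72.9 CPM (39.0 to 139.9), with 9 of 28 tests higher at D12. *Ccr2* was at 0 in 4 libraries. For 4 neutrophil markers the median sum was 0 CPM in naive (0 to 31.5), D12 (0 to 6.70) and D28 libraries (0 to 21.4). They gave 0 calls in 1 test on each day. Of the 62 libraries, *Ly6g* and *Retnlg* were at 0 in 61, *S100a9* in 60 and *S100a8* in 41. The sum of 5 Mueller glia markers had medians of 6732 (3261 to 18297), 15133 (1982 to 43329) and 27635 CPM (14812 to 46041) in naive, D12 and D28 libraries, and the 2 of 30 tests that gave a rise on each day were those of *Apoe*, which microglia also express. For 6 photoreceptor markers the medians were 1825 (578 to 3214), 789 (417 to 2700.5) and 1474 CPM (734 to 2588), with 0 calls in 36 tests on each day. B cell and endothelial markers also gave 0 calls, with sums of at most 116 and 42.6 CPM in a library. Lymphocytes and monocyte-derived cells also express GBPs, and the part of these cells and of RNA from other retinal cells in the GBP levels was not tested.

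D28 against naive asks which GBPs were still above the naive level. At D28 7 of 48 tests gave a rise, 0 a fall, and 45 of the 48 log2 fold changes were above 0. *Gbp8* made up 4 of the 7 calls. In 3-month-old females 1 of 8 members was called (all genes 0.396%), in 3-month-old males 1 (0.665%), in 9-month-old females 2 (0.426%), in 9-month-old males 0 (0.12%), in 18-month-old females 0 (0%) and in 18-month-old males 3 (0.553%). The median log2 fold change of the 8 members at D28 was 0.45 and 2.02 in 3-month-old females and males, 2.03 and 1.83 at 9 months, and 2.29 and 2.22 at 18 months, so that the 0 calls in 18-month-old females stood beside the highest median. The log2 fold change of *Gbp8* was 3.51 (SE 0.58, adjusted p = 0.010) and 3.87 (SE 0.69, adjusted p = 0.022) in 3-month-old females and males, 5.801 (SE 0.58, adjusted p = 9.0e-04) in 9-month-old females and 3.84 (SE 0.52, adjusted p = 0.0034) in 18-month-old males, by glmTreat in edgeR. It was 1.76 (SE 0.71, adjusted p = 1.0) in 9-month-old males and 4.57 (SE 1.43, adjusted p = 0.99) in 18-month-old females, without a call. *Gbp4* was called in 9-month-old females, at 5.097 (SE 0.79, adjusted p = 0.015). In 18-month-old males *Gbp2* was called at 3.07 (SE 0.29, adjusted p = 3.9e-04) and *Gbp6* at 3.15 (SE 0.49, adjusted p = 0.013).

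*Gbp6* in 18-month-old males stood at 13.4, 13.9, 18.4 and 51.2 CPM at D28 and at 1.65, 1.05, 4.99 and 3.71 CPM in naive libraries. The fourth D28 value, from the library with 2 day labels, was the highest. With that library placed at D12 the D28 calls in 18-month-old males went from 3 to 0. As each library was left out in turn, that one included, 2 to 3 members were called. That library held *Gbp2* at 104 CPM, against 1017 to 1688 CPM in the D12 libraries of 18-month-old males. *Gbp3*, *Gbp5*, *Gbp7* and *Gbp9* had 0 calls at D28. Over the 21 D28 libraries the median of *Gbp3* was 29.4 CPM (range 16.6 to 53.9), that of *Gbp5* 10.97 CPM (range 2.304 to 31.2), that of *Gbp7* 43.9 CPM (range 21.8 to 114) and that of *Gbp9* 29.9 CPM (range 11.7 to 82.3). Over all ages and sexes each of these ranges overlapped that of the naive libraries. Within an age and sex, every D28 library was above every naive one for 2 of 8 members in 3-month-old females (all genes tested 5.96%), 5 in 3-month-old males (9.9%), 5 and 6 in 9-month-old females and males (7.35% and 13.1%), and 7 and 4 in 18-month-old ones (10.6% and 4.91%). *Gbp5* in 9-month-old males, for example, was at 29.8, 10.54 and 10.97 CPM at D28 and 1.004 and 0.851 CPM in naive libraries. *Gbp7* in 3-month-old females was at 25.4, 22.3, 26.5 and 35.9 CPM, with a log2 fold change of -0.47 (SE 0.26, adjusted p = 1.0). The call of *Gbp8* in 3-month-old females was lost without naive replicate 2 or 3. In 3-month-old males 0 members were called without D28 replicate 1 or naive replicate 3, 2 without D12 replicate 2, 3 without naive replicate 1 and 4 without D28 replicate 3. In 9-month-old females 1 was called without naive replicate 2. In 9-month-old males 2 members had an unadjusted p under 0.05, beside 435 of 11630 genes tested. DESeq2 called 0 there, and 1 was called without D12 replicate 2. In 18-month-old females 2 members had an unadjusted p under 0.05, beside 371 of 11159 genes tested, and DESeq2 called 0. Within collection days, the D28 mean was above the naive mean in 86 of 96 cases.

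D28 was then compared with D12. All 48 log2 differences of D28 from D12 were below 0, 38 had an unadjusted p under 0.05, and 14 passed glmTreat. Among all genes tested, 119 of 11159 (18-month-old females) to 597 of 11397 (18-month-old males) had such an unadjusted p in a fit. Beside 0.108% of all genes lower, 2 of 8 members were called in 3-month-old females (*Gbp2* and *Gbp4*). In 3-month-old males 3 were called (*Gbp2*, *Gbp4* and *Gbp6*, all genes 0.279%), in 9-month-old females 2 (*Gbp3* and *Gbp4*, 0.231%), in 9-month-old males 0 (0%), in 18-month-old females 0 (0%), and in 18-month-old males 7, all but *Gbp9* (0.667%). Every D28 library was below every D12 one for 5 of 8 members in 3-month-old females (all genes tested 4.46%), 7 in 3-month-old males (8.31%), 8 and 0 in 9-month-old females and males (10.1% and 4.53%), and 0 and 8 in 18-month-old ones (3.96% and 7.59%). *Gbp2* gave -2.88 (SE 0.39, adjusted p = 0.012) in 3-month-old females, -3.11 (SE 0.50, adjusted p = 0.024) in 3-month-old males and -3.94 (SE 0.30, adjusted p = 1.7e-05) in 18-month-old males, by glmTreat in edgeR. *Gbp4* gave -2.78 (SE 0.41, adjusted p = 0.025), -3.34 (SE 0.52, adjusted p = 0.019) and -4.26 (SE 0.66, adjusted p = 0.011) in the same groups. The difference nearest to 0 in 3-month-old females was that of *Gbp8*, which went from 98.2, 43.02, 85.5 and 26.3 to 21.7, 28.6, 30.9 and 18.5 CPM. It gave -1.34 (SE 0.49, adjusted p = 1.0) and did not pass.

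These counts rest on few libraries. In 3-month-old females 0 members were called without D12 replicate 1, D28 replicate 1 or D28 replicate 3, and 1 without D12 replicate 2, D12 replicate 3, D28 replicate 2 or D28 replicate 4. In 3-month-old males 6 were called without D12 replicate 2 and 1 without D12 replicate 4. In 9-month-old females 6 were called without naive replicate 1, and 1 without D12 replicate 1 or 3 or without D28 replicate 1, 2 or 4. In 9-month-old males 8 members had an unadjusted p under 0.05, beside 410 of 11630 genes tested. DESeq2 called 0 there, and 4 (*Gbp2*, *Gbp3*, *Gbp4* and *Gbp8*) were called without D12 replicate 2. In 18-month-old males 4 were called without D12 replicate 1 or D28 replicate 1, 2 or 3, and 3 without D12 replicate 2. With the library of 2 day labels at D12, 0 were called in 18-month-old males.

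Older animals were compared with 3-month-old ones of the same sex and day, by glmQLFTest in edgeR at an adjusted p under 0.1. Over 12 comparisons, 11 of 93 tests of a member gave a higher level at the older age and 0 a lower one. At D12 in females, 5 of 8 members were higher at 9 months (all genes 2.28%). *Gbp2* had 343, 287, 295 and 115 CPM at 3 months and 1185, 926 and 1371 CPM at 9 months, groups that did not overlap. Its log2 difference was 2.13 (SE 0.34, adjusted p = 0.0041), and those of *Gbp4* and *Gbp7* were 2.25 (SE 0.32, adjusted p = 0.0019) and 1.85 (SE 0.30, adjusted p = 0.0040). Those of *Gbp5* and *Gbp3*, the other two, were 1.83 (SE 0.40, adjusted p = 0.035) and 1.603 (SE 0.32, adjusted p = 0.017). The log2 differences of *Gbp6*, *Gbp8* and *Gbp9* were 0.77 (SE 0.37, adjusted p = 0.42), 1.299 (SE 0.42, adjusted p = 0.16) and 0.89 (SE 0.40, adjusted p = 0.38). Within each collection day, all 16 member differences were above 0, and on day 1 they compared 1 library with 1. At 18 months, D12 females gave 0 calls against 3 months (all genes 0.00961%), with the 2 low libraries among the 4, and DESeq2 gave 0.

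At D28 in females, 5 of 8 members were higher at 18 than at 3 months (all genes 0.752%). *Gbp2* stood at 21.5, 42.97, 28.6 and 48.7 CPM at 3 months and at 72.4, 202 and 102 CPM at 18 months. The log2 difference was 1.83 (SE 0.30, adjusted p = 0.0054), and *Gbp5*, *Gbp7*, *Gbp6* and *Gbp4* gave 2.02 (SE 0.47, adjusted p = 0.053), 1.29 (SE 0.27, adjusted p = 0.033), 1.62 (SE 0.41, adjusted p = 0.092) and 1.76 (SE 0.45, adjusted p = 0.097). *Gbp3*, *Gbp8* and *Gbp9*, at 0.69 (SE 0.27, adjusted p = 0.36), 1.09 (SE 0.32, adjusted p = 0.17) and 1.25 (SE 0.33, adjusted p = 0.12), did not pass. In this comparison 0 members were called without 18-month-old D28 replicate 3, 3 without replicate 2, and 2 without 3-month-old D28 replicate 1 or 3. Within collection days, 16 of 16 member differences were above 0. On the counts without the authors' batch correction and with no batch term, 0 members were called in this comparison and 4 at D12 between 9 and 3 months. At 9 months, D28 females gave 0 calls (all genes 0.0284%), 2 without 9-month-old D28 replicate 1, and 2 by DESeq2 (*Gbp5* and *Gbp7*). *Gbp2* there gave 1.74 (SE 0.39, adjusted p = 0.28).

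In males, *Gbp4* alone was called, at D12 between 18 and 3 months (all genes 0.0652%). It stood at 116, 72.6, 127 and 128 CPM at 3 months and 319.7, 317 and 309 CPM at 18 months, with a log2 difference of 1.47 (SE 0.24, adjusted p = 0.062). All 8 differences in this comparison were above 0, and 7 of the 8 members did not overlap between ages, beside 3.9% of all genes tested that were higher without overlap. *Gbp2* gave 1.08 (SE 0.25, adjusted p = 0.29). The call of *Gbp4* was lost without any of 3-month-old D12 replicates 1, 3 and 4 or 18-month-old D12 replicates 1 and 2, while 5 members were called without 18-month-old D12 replicate 3 and 5 by DESeq2. It was also lost with the library of 2 day labels at D12. Within collection days, 16 of 16 differences were above 0. No member was called in the other male comparisons, at 9 against 3 months in naive (all genes 0.00912%), D12 (0%) and D28 (0%) or at 18 against 3 months in naive (0.139%) and D28 (0.00937%). Naive females gave 0 calls at 9 (all genes 0%) and 18 months (0%). Over these 7 comparisons DESeq2 called 0 members and 4 of 53 tests had an unadjusted p under 0.05. Among all genes tested, 355 of 10345 (9 against 3 months, D12) to 947 of 10966 (9 against 3 months, naive males) had such a p.

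Males and females of 1 age and day gave 0 calls in 69 tests of members over 9 comparisons, with 11 at an unadjusted p under 0.05. Among all genes tested, 267 of 11008 (naive, 9 months) to 880 of 10807 (naive, 3 months) had such a p in a comparison. The share of all genes higher in males was 0.037%, 0.0948% and 0.102% at 3 months in naive, D12 and D28 microglia, 0.0182%, 0.0375% and 0.0371% at 9 months and 0.0187%, 0.0378% and 0.037% at 18 months. At D12 at 3 months all 8 members were on the side of males. *Gbp2* was at 343, 287, 295 and 115 CPM in females and 507, 618, 537 and 816 CPM in males, and *Gbp4* at 55.4, 48.8, 60.1 and 24.4 and 116, 72.6, 127 and 128 CPM. Neither overlapped between the sexes (3 of 8 members and 2.74% of all genes tested were higher in males without overlap), and their log2 differences were 1.25 (SE 0.28, adjusted p = 0.15) and 1.23 (SE 0.27, adjusted p = 0.15) by glmQLFTest in edgeR. DESeq2 called both, and 1 member was called without male D12 replicate 2. Within collection days, 15 of 16 member differences were above 0, the exception being *Gbp8* on day 1 at -0.35. At 18 months D12 *Gbp2* gave 1.35 (SE 1.01, adjusted p = 1.0), with the 2 low female libraries included.

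The interaction of sex with D12, which tests whether the D12 response differs between males and females, gave 0 calls in 24 tests of members, with 8 at an unadjusted p under 0.05. Such a p was found for 1126 of 12002, 582 of 12364 and 830 of 11907 genes tested at 3, 9 and 18 months. Of all genes, 0.0583% were more positive in males at 3 months, 0% at 9 months and 0% at 18 months. At 3 months the response was on the side of males for 8 of 8 members, with a median log2 difference of 1.499. The largest was that of *Gbp2*, 2.63 (SE 0.71, adjusted p = 0.29), and *Gbp7* gave 1.59 (SE 0.38, adjusted p = 0.19) by glmQLFTest in edgeR. DESeq2 called 1 member, *Gbp7* at 3 months. At 9 months *Gbp8* gave -3.44 (SE 0.97, adjusted p = 0.98), on the side of females, against a naive female group with at most 4 counts. At 18 months *Gbp2* gave 2.64 (SE 1.14, adjusted p = 0.70).

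**Figure D5:**
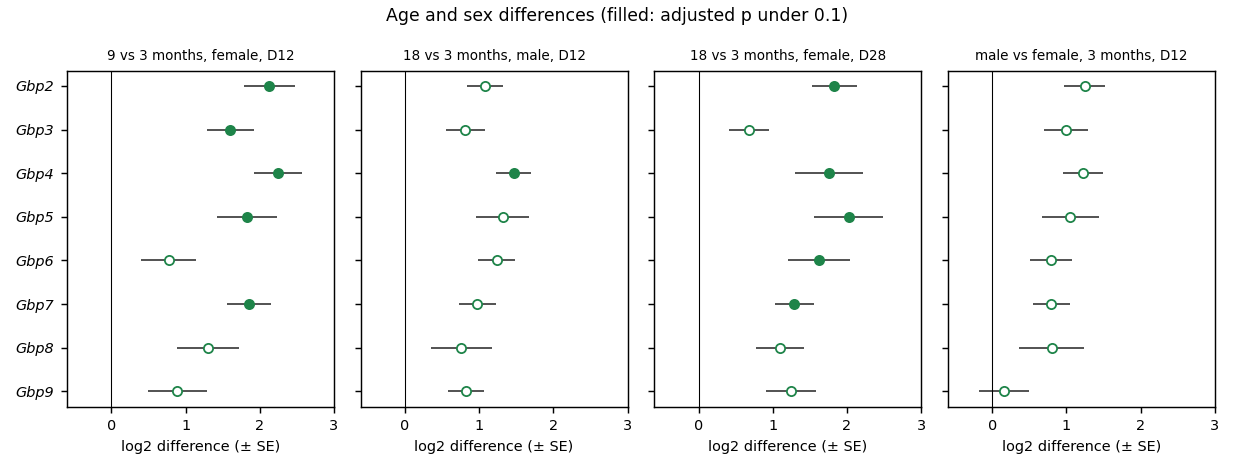
Log2 difference (point) and SE (line) of each GBP in 4 comparisons, namely 9 against 3 months at D12 in females, 18 against 3 months at D28 in females, 18 against 3 months at D12 in males, and males against females at D12 at 3 months. Filled points have an adjusted p under 0.1 and every point lies above 0.

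Genes of the pathway around the GBPs were read from 4 lists. Of 13 interferon signaling genes, 10 of 74 tests gave a rise at D12 and 0 at D28, and 0 a fall on either day. *Stat2*, a transcription factor of type I interferon signaling, rose in 4 of 6 fits, with log2 fold changes of 1.16 to 3.21 over all 6. *Socs1*, a feedback inhibitor of JAK kinases, rose in 3 (0.49 to 3.98), and *Irf1*, a transcription factor that itself responds to interferon, in 3 (1.42 to 3.00). *Ifng*, which encodes interferon gamma, passed the filter in 2 fits and was called in 0, at 3.900 (SE 1.398, adjusted p = 0.30) and 4.798 (SE 2.47, adjusted p = 0.63). The 4 genes of interferon receptors, the 3 JAK kinase genes, *Irf8* and *Irf9* had 0 calls.

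The immunity-related GTPases had the highest list medians after the GBPs, with 20 of 41 tests of 7 genes higher at D12 and 6 at D28. *Iigp1*, which coats parasite vacuoles, rose in 5 of 6 fits, with 3.72 to 7.21, and in 3 at D28 (1.47 to 4.66). *Tgtp2* rose in 4 of 6 (2.71 to 5.15), *Tgtp1* in 3 of 5 (3.88 to 9.43) and *Ifi47* in 3 of 6 (2.17 to 4.97). The regulators of the family, *Irgm1*, *Irgm2* and *Igtp*, gave 5 calls together. *Tgtp1* and *Tgtp2* are near-identical copies, and their counts are uncertain.

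The lists of inflammasome and membrane targeting genes gave few calls. Among all genes tested, 0 of 11159 (18-month-old females) to 326 of 11397 (18-month-old males) rose in a D12 fit. Of 8 inflammasome and pyroptosis genes, 1 of 48 tests gave a rise at D12, *Casp4* (caspase-11, the sensor of intracellular lipopolysaccharide) in 9-month-old females at 2.54 (SE 0.50, adjusted p = 0.044), and 0 at D28. *Il1b* had log2 fold changes of 1.18 to 3.03, *Pycard*, the inflammasome adaptor, of 0.66 to 1.16 and *Il18* of 0.02 to 0.96, with 0 calls. Of 10 genes of membrane targeting, which include the ATG8 conjugation machinery and the subunits of prenyl transferases, 1 of 60 tests gave a rise at D12, *Gabarap* in 3-month-old males at 1.53 (SE 0.16, adjusted p = 0.012), and 0 at D28. *Atg7* ranged over -0.60 to 1.57, *Map1lc3b* over 0.00 to 0.76 and *Atg5* over -0.16 to 0.25, and the 9 genes other than *Gabarap* had 0 calls. Across the 6 fits at D12 the list medians were 0.15 to 1.08 for interferon signaling, 1.81 to 4.89 for the immunity-related GTPases, 0.41 to 0.76 for the inflammasome list and -0.54 to 0.23 for membrane targeting. Those of the 8 GBPs were 2.92 to 5.34, and those of all genes tested -0.01 to 0.11.

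The 3 other rows of the family in the table were *Gbp2b*, *Gbp10* and *Gbp11*, the last a transcribed pseudogene. *Gbp2b* lies between *Gbp3* and *Gbp2* and had a median of 33.8 CPM (range 0 to 279) in D12 libraries and of 0 CPM (range 0 to 9.14) in naive ones. The D12 libraries of 18-month-old males held 129.7, 162 and 90.4 CPM and those of 3-month-old males 13.7, 20.1, 74.04 and 47.6 CPM, while their naive groups were at 0 in every library. In D28 libraries its median was 0 CPM (range 0 to 3.04). *Gbp10* had 3.47 CPM (range 0 to 21.3) and *Gbp11* 1.28 CPM (range 0 to 10.1) in D12 libraries. Together these 3 rows gave 5 calls in 10 tests at D12, and no fold is given because most naive groups were at 0. Of the *Gbp10* windows, 67.2% also occur in other genes of the family.

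The genes whose profile was most like each member's were sought by the root mean square difference of log2 group means over the 18 groups, each profile centered, among 10527 genes. The profile nearest to that of *Gbp2* was *Iigp1* (0.59) followed by *Serping1* (0.63), and those nearest to *Gbp4* were *Gbp2* (0.64) and *Serping1* (0.68). *Gbp3* was nearest to *Ifi211* (0.38) and *Fgl2* (0.42), *Gbp6* to *Tgtp2* (0.47) and *Gbp3* (0.49), and *Gbp5* to *Gm4841* (0.53) and *Fgl2* (0.66). *Gbp7* was nearest to *Nampt* (0.33) and *Rnf213* (0.40), *Gbp9* to *Glrx* (0.39) and *Nampt* (0.40), and *Gbp8* to *Ikbke* (0.59) and *Il18bp* (0.63). The 18 points of a profile share the D12 shift, and these values describe likeness only.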

How the data were processed

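Libraries were made by the authors with a SMART-Seq kit and Nextera XT and sequenced single-end. The authors aligned reads to mm10 with STAR 2.7.8a and counted them per gene with featureCounts on the refGene annotation. They corrected the counts for the 2 collection days with ComBat_seq. The deposited tables hold whole-number counts of 25239 genes, corrected (63 libraries) and uncorrected (64), with no scaling for depth. A correction by day before the fits can change the spread within groups, and the uncorrected counts were therefore an alternative.

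The corrected counts of 62 libraries were scaled by TMM, filtered by filterByExpr and fitted by quasi-likelihood models in edgeR 4.0.16 (R 4.3.3), in 6 fits of 3 day groups for D12 and D28, 12 for age, 9 for sex and 3 for the interaction. The SE of a log2 fold change was taken from its quasi-likelihood F statistic. For the days, glmTreat tested for a log2 fold change beyond 1, with a p under 0.05 after Benjamini-Hochberg adjustment over all genes that passed the filter. For age, sex and interaction, glmQLFTest was used with an adjusted p under 0.1. A GBP was called where it passed its test. All members and the other family rows are named and, of each list, with values, the 4 genes with the highest mean log2 fold change at D12. Members and lists were chosen with earlier results of these data known. Some genes of the lists are not reported here. Positions and promoters are from RefSeq and exon lengths from GENCODE M21, on GRCm38.p6, the assembly that mm10 names. Steps were tested on simulated data, made for D12 against naive in 3 groups. Of genes set to a log2 change of 3, 42.7% were called in 18-month-old females, 58.9% in 9-month-old males and 79.2% in 3-month-old males. For a log2 change of 2 the shares were 6.19%, 16.7% and 40.8%, with 1 false call in each group. An absent call in such small groups is therefore weak evidence of no change. No 2 libraries of a group were identical in 85 pairs. The alternatives were DESeq2 1.42.0, its size factors, no filter, uncorrected counts with and without a day term, the replicate number as a block, 1 fit over all 18 groups, glmQLFTest for the days, the left-out library added back, the library with 2 day labels placed at D12, CPM without TMM, and each library left out in turn.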

Additional observations from a re-analysis of the deposited data

Results flagged for a closer look

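A sample far from the rest of its group was found in 3 of the 72 combinations of member and group with 4 libraries, and chance alone gives about 1 in 20. *Gbp3* in D12 replicate 4 of the 3-month-old females was at 35.0 CPM, with the other 3 at 84.5 to 93.2. *Gbp8* in D12 replicate 2 of the 9-month-old males was at 23.98 CPM, with the others at 152 to 176. *Gbp6* in D28 replicate 4 of the 18-month-old males, the library with 2 day labels, was at 51.2 CPM, with the others at 13.4 to 18.4.

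The 2 libraries kept out of the comparisons, whose sex-linked genes go against their labels, held GBPs above every naive library on uncorrected CPM. The library labeled 9-month-old male D28 replicate 1 had *Gbp2* at 100.1 CPM (highest naive library 51.2), *Gbp3* at 52.3 (37.7), *Gbp4* at 30.03 (10.54), *Gbp5* at 12.9 (9.29), *Gbp6* at 26.6 (21.95), *Gbp7* at 75.2 (61.9), *Gbp8* at 52.1 (9.10) and *Gbp9* at 47.8 (43.2). The library labeled 18-month-old female D28 replicate 1 had *Gbp2* at 1457 CPM, *Gbp3* at 302, *Gbp4* at 274, *Gbp5* at 97.2, *Gbp6* at 168, *Gbp7* at 388, *Gbp8* at 132 and *Gbp9* at 141. Among all other D28 libraries, uncorrected *Gbp2* reached at most 190 CPM, in 9-month-old male replicate 2. The library at 100.1 CPM lay below that value and the one at 1457 CPM above it.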

How the results depend on the processing

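Every D12 log2 fold change kept its direction under every alternative run, and the number of D12 calls, 36, stayed within 1.5 times of that value. The other counts, 7 at D28, 14 for D28 against D12, 11 for age, 0 for sex and 0 for the interaction, moved more. DESeq2 gave 20 for age, 2 for sex and 1 for the interaction. Without a filter on low counts there were 12 at D28, 28 for D28 against D12, 22 for age, 4 for sex and 6 for the interaction. Uncorrected counts with no day term gave 4 for D28 against D12 and 4 for age. A single fit over 18 groups gave 2 at D28, 0 for D28 against D12 and 0 for age. In place of glmTreat, glmQLFTest gave 14 at D28 and 28 for D28 against D12. With the library of 2 day labels at D12 there were 4 at D28 and 7 for D28 against D12. The cause of these shifts was not tested.

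As each library was left out, the counts were 30 to 37 at D12, 6 to 10 at D28, 10 to 18 for D28 against D12, 6 to 15 for age, 0 to 1 for sex and 0 to 0 for the interaction. The groups share replicate numbers, but deviations of same-numbered libraries had a mean correlation of -0.034 over 54 pairs, 1 of them over 0.1, against 0.011 over 159 other pairs, so that the numbers were not taken as a pairing. With the replicate number as a block, 8 members were called for D28 against D12, 29 at D12, 7 at D28, 9 for age and 0 for both sex and the interaction.

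A few log2 fold changes at D28 turned sign. *Gbp9* in 9-month-old males became 0.086 on uncorrected counts with no day term, 0.015 with one, 0.38 with the block, 0.20 without D28 replicate 3 and 0.08 without D28 replicate 4, over a range of -0.74 to 0.20 as each library was left out. *Gbp9* in 3-month-old females became 0.04 without D28 replicate 4 and 0.24 without naive replicate 4, over -0.44 to 0.24. *Gbp4* in 3-month-old females became -0.063 without naive replicate 3, over -0.063 to 0.56, and *Gbp5* in 3-month-old males -0.076 without D28 replicate 2, over -0.076 to 1.75. Of 144 group means, 2 moved by more than their spread on CPM without TMM. Depth limits *Gbp4* and *Gbp8* in naive libraries, some of which held 0 counts.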
